A study of Arabidopsis thaliana with 12 samples.

Results

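The response of wild-type Arabidopsis seedlings to abscisic acid (ABA) was read from every row of the comparison between ABA-treated and untreated wild type, 19647 loci of the 58218 locus rows and 10502 splicing events of the 31521 intact event rows deposited for the series as a whole. No row was chosen by its value, and 33 event rows whose difference did not match their PSI values were left out. The ABA group was wild type of the accession Col-0, sprayed with 0.1 mM ABA and harvested 6 hours later. The untreated group was Col-0 that had received no treatment. Both groups were bulked seedlings grown for 2 weeks after 4 days of stratification, with 3 samples each, and polyadenylated RNA was sequenced. The labels name no mock spray for the untreated group and give no harvest time, so that spraying and ABA cannot be told apart. The series also holds the mutant rbm25-1 with and without ABA, 12 samples in all.

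ABA is the hormone through which plants signal drought, salt and cold, and through which seeds stay dormant. It binds PYR/PYL receptors, which then block clade A PP2C phosphatases and so free SnRK2 kinases, and these activate bZIP transcription factors that bind the ABA-responsive element (ABRE) in promoters. In leaves the hormone closes stomata, holds back growth and turns on genes that protect cells from water loss.

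Each value below is the authors' single value for a group, in FPKM, a fragment count normalised for library size and transcript length, and no value per sample was at hand. A gene is called higher or lower at the authors' deposited q, an adjusted p-value from Cuffdiff, under 0.05, and a fold is the ratio of the group values. The authors' p-values measure the spread between samples that may be technical, since separate cultures are not stated. Of the 19647 loci, 11026 were called (56.1%), 5114 higher (26.0%) and 5912 lower (30.1%). Among loci with a value above 0 in both groups, 2279 were called and higher by at least 2-fold (11.6% of all loci). Another 2269 were called and lower by at least 2-fold (11.5%). The median log2 change over all loci was -0.07. Because so many loci were called, the counts for gene groups below are set beside 26.0% and 30.1%.

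The 12 loci with the largest called gain and the 12 with the largest called loss in FPKM are described first. They were picked by that change, so the direction of their sums follows from the choice. The 20 most abundant loci of each group held 11.6% of the summed FPKM with ABA and 12.2% untreated. Summed over the 12 loci with the largest called gain in FPKM, transcript levels were 60251 FPKM with ABA, against 12999 FPKM untreated, which was 6.78% of the summed FPKM of all loci with ABA and 1.42% untreated. Over the 12 loci with the largest called loss, the sum was 29675 FPKM with ABA, against 73323 FPKM untreated, or 3.34% of the total with ABA and 8.03% untreated.

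KIN2, a small hydrophilic protein of cold and drought, stood at 11260.4 FPKM with ABA, against 102 FPKM untreated, and had the largest gain in FPKM of all called loci. Its tandem neighbour KIN1 rose to 1640.1 FPKM with ABA, against 6.45 FPKM untreated. The copies are alike enough that reads may be split between them, so that their levels are uncertain one by one. The metallothionein gene MT2A, whose product binds metals, reached 11898 FPKM with ABA, against 3667 FPKM untreated. That is a 3.24-fold rise on an already abundant transcript. SAG21, a mitochondrial late embryogenesis abundant (LEA) protein, rose to 6738 FPKM with ABA against 1582 FPKM untreated, and RCI2A, a small membrane protein of cold and salt stress, to 3860.4 FPKM with ABA against 1198 FPKM untreated. The LEA gene AT3G02480 was the steepest of these 12, at 4959 FPKM with ABA and 5.21 FPKM untreated.

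Other large gains belonged to wall, detoxification and polyamine genes. The glycine-rich protein genes GRP3S and GRP-3 rose to 4502 and 3863 FPKM with ABA, against 1959 and 1968 FPKM untreated. ADC2, arginine decarboxylase of putrescine synthesis, rose 9.09-fold, at 1823 FPKM with ABA and 201 FPKM untreated. Merged loci made up the remaining 3 of the 12 gains. The locus of the lipid transfer protein genes LTP1 and LTP2 stood at 3991 FPKM with ABA and 848 FPKM untreated, that of the glutathione transferase genes GSTU19 and GSTU20 at 3145 FPKM with ABA and 658 FPKM untreated, and that of XTH24 with its neighbour AT4G30260 at 2572 FPKM with ABA and 805 FPKM untreated. A merged value cannot be assigned to either gene.

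Losses in FPKM were led by the light-harvesting antenna. CAB1, an LHCB1 protein of photosystem II, had the highest level of any locus in untreated seedlings, and fell to 6770.2 FPKM with ABA, against 16742 FPKM untreated. Its close paralogs LHB1B1 and LHB1B2 fell to 1713 and 2655 FPKM with ABA, against 6767 and 7183 FPKM untreated. These copies share long stretches of sequence and their split is uncertain. LHCB5 (1372 FPKM with ABA against 3838 FPKM untreated), LHCB4.1 (1080.2 FPKM with ABA against 3064 FPKM untreated), LHCA3 (1157 FPKM with ABA against 3579 FPKM untreated) and LHCA1 (1436 FPKM with ABA against 3559 FPKM untreated) carried the pattern to the other antenna proteins of both photosystems. RBCS1A, a small subunit of Rubisco, fell to 1880.0 FPKM with ABA, against 5905 FPKM untreated. PSBR of photosystem II fell less, 1.79-fold, at 4066 FPKM with ABA and 7293 FPKM untreated.

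The last of the large losses were not photosynthetic. Metallothionein MT3 fell to 4333 FPKM with ABA, against 7758 FPKM untreated, the reverse of MT2A. AT2G45180, a protein of the lipid-transfer and seed-albumin superfamily, fell to 2517 FPKM with ABA, against 4833 FPKM untreated. The vacuolar water channel DELTA-TIP fell 4.03-fold, at 695 FPKM with ABA and 2803 FPKM untreated.

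**Figure D1:**
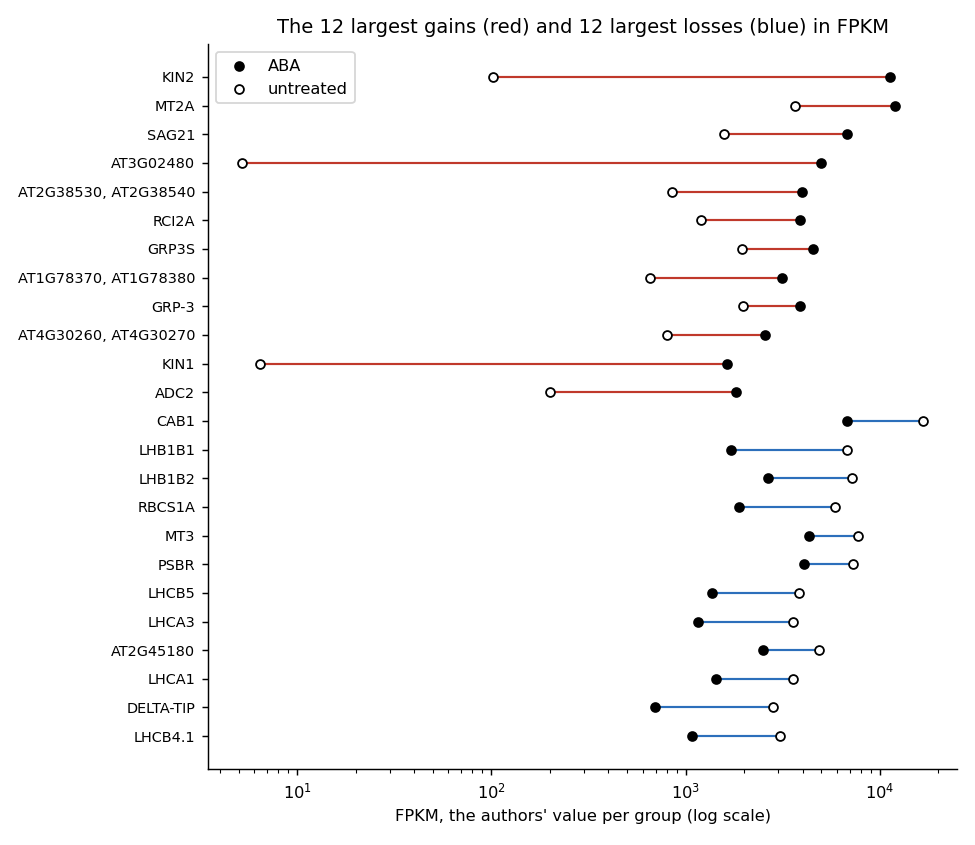
The authors' FPKM per group on a log axis for the 12 loci with the largest gain (red lines) and the 12 with the largest loss (blue lines) among called loci, with filled points for ABA and open points for untreated wild type. KIN2, KIN1 and AT3G02480 span the longest distances, while MT2A and most losses changed by less than 5-fold at high levels.

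Some equally abundant transcripts had nearly equal values. The 8 most abundant loci with a log2 change under 0.1 in size and no call were taken as a contrast, and the metallothionein MT2B headed them at 5629 FPKM with ABA and 5906 FPKM untreated. The iron superoxide dismutase FSD1 stood at 1855 FPKM with ABA and 1939 FPKM untreated, and RD19, a cysteine protease first described for its induction by drought, at 1672 FPKM with ABA and 1652 FPKM untreated. FBR12 (eIF5A), MT1C, ARFA1E, AT1G78040 and CBSX3 completed this set, with CBSX3 at 866 FPKM with ABA and 870.5 FPKM untreated. The metallothioneins thus ranged from a rise (MT2A) over 2 genes without a call (MT2B and MT1C) to a fall (MT3).

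A few loci were listed at 0 in one of the groups. Of 35 loci at 0 in untreated seedlings, 31 were called higher. The small heat shock protein gene ATHSP22.0 was the highest of them, at 32.3 FPKM with ABA, followed by a stretch without gene identifier at 29.9 FPKM and the LEA gene AT2G33690 at 9.38 FPKM. CLE40, a signal peptide of the root stem cell niche, reached 5.40 FPKM, AT2G38905, a relative of RCI2A, 4.46 FPKM, and GASA2, of the gibberellin-regulated GASA family, 2.88 FPKM. The pseudogene AT1G11055, at 7.82 FPKM with ABA, was not called. Conversely 23 loci were at 0 with ABA, of which 18 were called lower. The highest of these in untreated seedlings, AT4G09649 at 13.4 FPKM and AT5G57650 at 9.58 FPKM, were not called, and the highest called one, AT3G63052, stood at 2.56 FPKM. A listed 0 may be a failed estimate, and no fold is given.

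The size of a change and its call came apart where untreated levels were near 0. Of 145 loci at least 32-fold higher with ABA, 94 were called (0.478% of all loci) and 51 were not. In untreated seedlings the uncalled ones had a median of 0.0431 FPKM and the called ones 0.668 FPKM. With an untreated level under 0.1 FPKM, 3 of 41 loci were called, and at 0.1 FPKM or more, 91 of 104 were. The highest ratio of the whole comparison belonged to an uncalled gene. LTP4, a lipid transfer protein, stood at 1635 FPKM with ABA, against 0.231 FPKM untreated, with q = 0.0748 in the authors' deposited table. HAI3, a clade A PP2C phosphatase named for its induction by ABA, stood at 35.9 FPKM with ABA and 0.0477 FPKM untreated (q = 0.183 in the authors' deposited table). GASA3 (38.3 FPKM with ABA against 0.133 FPKM untreated), the glutathione transferase GSTU3 (20.7 FPKM with ABA against 0.155 FPKM untreated), HVA22B (11.4 FPKM with ABA against 0.164 FPKM untreated) and AT4G31830 (41.9 FPKM with ABA against 0.0413 FPKM untreated) were likewise uncalled. In the other direction 36 loci were at least 32-fold lower and 14 of them were called. Of the lowest 5 ratios only EXPA8, an expansin of wall loosening, was called, at 0.669 FPKM with ABA and 64.2 FPKM untreated. The uncalled ones included ACS5 of ethylene synthesis (0.00784 FPKM with ABA against 0.845 FPKM untreated) and CYP735A2 of trans-zeatin synthesis (0.0129 FPKM with ABA against 1.64 FPKM untreated).

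**Figure D2:**
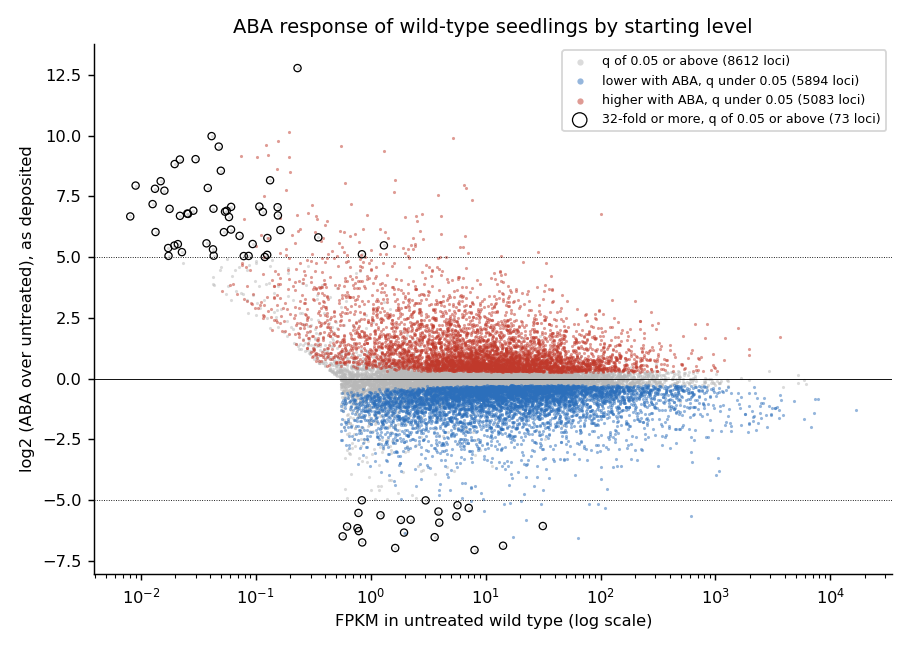
Each point is a locus with values above 0 in both groups, placed by its FPKM in untreated wild type (log axis) and its deposited log2 change with ABA, coloured by the authors' q. Open circles mark loci changed 32-fold or more without a call, and for rises most of them lie below 0.1 FPKM in untreated seedlings. The slanted left edge follows from the deposited rows, none of which has under 0.547 FPKM in the higher group.

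Promoters of the strongest responders were rich in the ABRE core. The core was searched as ACGTG on both strands in the 300 bases before the annotated start of 18442 genes, with a palindromic CACGTG counted once when cores were numbered. It was found in 65 of 89 promoters of genes called at least 32-fold higher with ABA (73.0%, exact Clopper-Pearson 95% interval of the count 62.6 to 81.9%). Over all promoters of this length the share was 26.8%. The share was 36.2% of 2055 genes called 2 to 32-fold higher, 29.5% of 2655 genes called higher by less, and 24.5% of 8021 genes not called. For falls it was 23.0% of 3439 genes called lower by under 2-fold and 26.9% of 2138 genes called at least 2-fold lower. So the share followed the size of a rise and lay near that of all genes for falls. Cores numbered 2 or more in 37 of the 89 strongest promoters (41.6%), against 6.58% of all. Of the 46 uncalled genes that were at least 32-fold higher, 23 held a core (50.0%). These intervals cover the counting of genes only, and genes are not replicates.

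The sequences below show where the cores lie in LTI65, AT3G17520, AT3G02480 and KIN1, which rose and hold 1 to 4 cores, and in CAB1 and LHB1B1, abundant genes that fell. The 4 that rose were picked for the most cores among the largest gains and highest ratios, so they do not stand for all risen genes. CAB1 and LHB1B1 had the largest losses in FPKM. They are read from the RefSeq genome of build TAIR10.1, 5′ to 3′ on the gene's strand, ending at the base before the annotated start, with the ABRE cores in capitals.
LTI65 (RD29B, plus strand, chr5:21236721-21237020): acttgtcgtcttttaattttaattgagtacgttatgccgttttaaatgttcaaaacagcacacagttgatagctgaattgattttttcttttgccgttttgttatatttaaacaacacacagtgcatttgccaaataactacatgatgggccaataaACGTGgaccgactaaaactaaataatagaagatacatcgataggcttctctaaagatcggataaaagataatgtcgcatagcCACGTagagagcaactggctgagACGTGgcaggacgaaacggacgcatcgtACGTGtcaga
AT3G17520 (LEA protein, minus strand, chr3:6000448-6000747): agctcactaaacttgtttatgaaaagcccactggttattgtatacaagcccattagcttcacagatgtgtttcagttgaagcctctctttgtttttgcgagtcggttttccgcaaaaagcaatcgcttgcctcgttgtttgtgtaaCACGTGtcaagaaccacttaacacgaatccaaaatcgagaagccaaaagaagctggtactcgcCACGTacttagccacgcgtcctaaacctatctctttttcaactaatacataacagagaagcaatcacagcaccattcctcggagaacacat
AT3G02480 (LEA protein, plus strand, chr3:511920-512219): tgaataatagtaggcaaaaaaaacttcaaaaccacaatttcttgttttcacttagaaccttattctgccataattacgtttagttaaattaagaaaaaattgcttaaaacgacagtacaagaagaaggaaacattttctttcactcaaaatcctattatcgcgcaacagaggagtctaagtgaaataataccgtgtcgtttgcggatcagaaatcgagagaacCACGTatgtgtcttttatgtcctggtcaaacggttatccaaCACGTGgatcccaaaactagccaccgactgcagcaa
KIN1 (plus strand, chr5:5209417-5209716): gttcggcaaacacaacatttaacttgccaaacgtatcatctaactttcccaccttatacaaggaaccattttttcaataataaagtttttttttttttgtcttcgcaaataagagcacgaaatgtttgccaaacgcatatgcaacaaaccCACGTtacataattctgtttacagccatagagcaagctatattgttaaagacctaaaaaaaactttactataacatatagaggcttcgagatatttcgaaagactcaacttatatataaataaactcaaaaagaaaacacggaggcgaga
CAB1 (plus strand, chr1:10477585-10477884): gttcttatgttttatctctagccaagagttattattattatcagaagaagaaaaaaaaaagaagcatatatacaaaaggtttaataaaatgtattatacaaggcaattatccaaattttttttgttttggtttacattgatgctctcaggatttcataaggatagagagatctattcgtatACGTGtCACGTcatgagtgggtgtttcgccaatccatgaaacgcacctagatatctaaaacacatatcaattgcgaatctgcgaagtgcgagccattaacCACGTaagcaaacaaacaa
LHB1B1 (plus strand, chr2:14524307-14524606): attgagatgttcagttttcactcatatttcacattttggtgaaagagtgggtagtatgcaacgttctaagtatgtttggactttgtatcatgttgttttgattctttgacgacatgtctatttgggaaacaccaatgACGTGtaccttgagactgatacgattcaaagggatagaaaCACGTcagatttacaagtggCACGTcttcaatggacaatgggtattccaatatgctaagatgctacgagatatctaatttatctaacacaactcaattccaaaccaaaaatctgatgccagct

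LTI65, a classical ABA and drought reporter gene, holds 4 cores, the nearest 10 bases and the farthest 143 bases before the start, and stood at 139 FPKM with ABA, against 0.158 FPKM untreated. AT3G17520 holds 2 cores (225 FPKM with ABA and 0.195 FPKM untreated), as does AT3G02480, and KIN1 holds 1. The promoters of CAB1 and LHB1B1, whose transcripts fell, hold 3 cores each. MT2A, SAG21, GRP-3 and ADC2, which rose, and the uncalled LTP4 and AT4G31830 held none in this window. A match is a string of letters and not a measured binding site.

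The cores were most frequent near the start. Between 100 and 50 bases before the start, 33.7% of the promoters of genes at least 32-fold higher held a core, against 8.08% of all promoters, and in the farthest 50 bases 7.87%, against 3.71% of all. Genes at least 2-fold lower had 8.84% between 100 and 50 bases. Longer forms of the core were also more frequent in the strongest promoters than in all. ACGTGTC was present in 27.0% of the strongest promoters and 4.79% of all, ACGTGGC in 13.5% and 4.30%, and the G-box CACGTG, which contains the core, in 34.8% and 8.07%. The drought-responsive element core CCGAC, bound by DREB factors, was in 27.0% of the strongest promoters and 15.0% of all. The W-box core TTGAC of WRKY factors was in 53.9% and 50.7%. The site II element TGGGCC, known from ribosomal protein and proliferation genes, was less common at both ends of the response, in 10.1% of genes 2 to 32-fold higher and 10.3% of genes at least 2-fold lower, against 17.3% of all.

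Gene structure also varied with the response. Genes without introns made up 33.7% of those at least 32-fold higher, 23.0% of those 2 to 32-fold higher and 26.8% of those at least 2-fold lower, against 16.8% of all genes. The median number of introns was 1 in the strongest class and 3 over all genes, and the median transcript length 1160 and 1652 bases. The strongest class also had a lower median untreated level, 0.730 FPKM against 9.74 FPKM for all. This follows in part from the choice, since the class is defined by its ratio to the untreated level. Whether length or starting level bears on these shares was not tested.

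**Figure D3:**
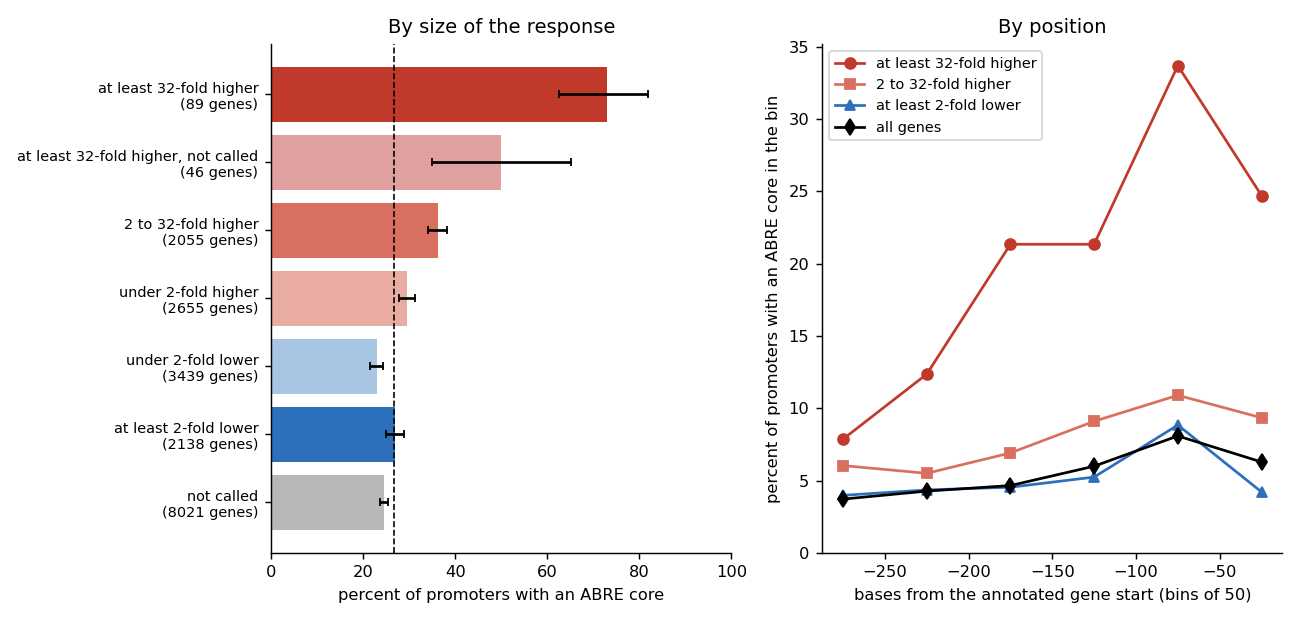
Left, the percent of promoters with an ABRE core for genes grouped by the size and direction of the ABA response, with exact 95% intervals of the count and a dashed line for all genes. Right, the percent of promoters with a core in each bin of 50 bases before the annotated start, where genes at least 32-fold higher peak at 33.7% between 100 and 50 bases.

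The tested ABI5-binding proteins all rose, while E3 ubiquitin ligases of ABA signalling and ABA transporters were more mixed. Receptors, PP2C phosphatases, SnRK2 kinases and bZIP factors were not counted here. Of 17 tested ABI5-binding proteins and E3 ubiquitin ligases, 11 rose and 2 fell, with a median log2 of 1.18. The 13 ligases alone had 7 higher and 2 lower, with a median log2 of 0.40. The ABI5-binding proteins (AFP), which hold back the bZIP factor ABI5, rose in 4 of 4 cases, with AFP1 at 104 FPKM with ABA and 5.72 FPKM untreated and AFP3 at 243 FPKM with ABA and 45.0 FPKM untreated. The ligase PUB19, a negative regulator of ABA responses, stood at 17.3 FPKM with ABA and 0.240 FPKM untreated, and AIRP1, a positive one, at 12.9 FPKM with ABA and 2.53 FPKM untreated. The RING ligases RHA2A (26.7 FPKM with ABA against 46.0 FPKM untreated) and RHA2B (18.7 FPKM with ABA against 23.3 FPKM untreated), also positive regulators, fell. Among 7 ABA transporters 3 rose (42.9%) and 2 fell (28.6%). The exporters DTX50 (14.7 FPKM with ABA against 1.73 FPKM untreated) and ABCG25 (18.6 FPKM with ABA against 6.63 FPKM untreated) rose, and so did ABCG22 (26.7 FPKM with ABA against 5.74 FPKM untreated), a half-size transporter of guard cells. The importer ABCG40 was listed at 2.70 FPKM with ABA and 0.100 FPKM untreated without a call, and the importer NPF4.6 fell slightly, to 27.9 FPKM with ABA against 33.9 FPKM untreated.

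Calcium sensors and kinases mostly rose, ion transport genes with roles in guard cells rose in 10 of 20 cases, and guard cell lineage markers fell. Calcium sensors and their kinases had 17 of 25 genes higher and 3 lower, with a median log2 of 0.74. CIPK6, a kinase partnered by calcineurin B-like sensors, rose the most of these 25, at 618 FPKM with ABA and 154 FPKM untreated. CIPK8 followed at 52.1 FPKM with ABA and 16.1 FPKM untreated. CIPK19 and CPK15, which are not among the 25, had larger log2 changes, 4.38 and 3.32 against 2.01 for CIPK6. CBL10, a sensor of salt tolerance, fell to 8.40 FPKM with ABA against 23.6 FPKM untreated, and CIPK20 to 0.325 FPKM with ABA against 1.53 FPKM untreated. Of the 20 ion transport genes 10 rose, 2 fell and 8 were not called, and all were read in whole seedlings and not in guard cells. GORK, the outward potassium channel of closing stomata, rose to 8.04 FPKM with ABA against 1.68 FPKM untreated, ALMT12, an anion channel of closure, to 11.0 FPKM with ABA against 3.97 FPKM untreated, and the vacuolar exchanger NHX1 to 77.3 FPKM with ABA against 29.6 FPKM untreated. SLAH1 fell to 0.258 FPKM with ABA against 1.11 FPKM untreated. SLAC1, the main slow anion channel of guard cells, stood at 3.36 FPKM with ABA and 1.98 FPKM untreated, without a call. In the same RNA the 7 tested markers of the guard cell lineage all fell, with a summed level of 21.9 FPKM with ABA and 50.3 FPKM untreated. MYB60, a guard cell factor, was at 1.52 FPKM with ABA and 6.92 FPKM untreated, and EPF1, a peptide that spaces stomata, at 3.84 FPKM with ABA and 12.1 FPKM untreated. In bulk seedlings fewer cells of a type and less RNA per cell cannot be told apart, which holds for each tissue marker below.

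Genes for compatible solutes and sugars moved in both directions. Of 8 proline genes 3 rose (37.5%) and 2 fell (25.0%). P5CS1, the rate-limiting enzyme of proline synthesis, rose to 81.0 FPKM with ABA, against 16.5 FPKM untreated, and the proline carrier PROT2 to 41.9 FPKM with ABA against 10.1 FPKM untreated. P5CR, the last enzyme of proline synthesis, fell to 94.4 FPKM with ABA against 158 FPKM untreated, and P5CS2 was not called (33.4 FPKM with ABA against 39.3 FPKM untreated). ERD5, proline dehydrogenase, fell to 113 FPKM with ABA against 241 FPKM untreated, while ALDH12A1, the next enzyme of proline breakdown, rose to 51.0 FPKM with ABA against 23.0 FPKM untreated. Among 7 genes of galactinol and raffinose synthesis 4 rose and 2 fell. GolS2, the drought form of galactinol synthase, rose to 17.6 FPKM with ABA against 2.64 FPKM untreated, GolS3, the cold form, fell to 0.335 FPKM with ABA against 0.824 FPKM untreated, and GolS1 was not called (9.92 FPKM with ABA against 11.6 FPKM untreated). Of 15 trehalose phosphate genes 9 rose and 2 fell. The phosphatases TPPJ (10.3 FPKM with ABA against 1.11 FPKM untreated), TPPE (16.6 FPKM with ABA against 2.15 FPKM untreated) and TPPD (2.86 FPKM with ABA against 0.475 FPKM untreated) led the rises, and TPS11 (22.1 FPKM with ABA against 48.4 FPKM untreated) and TPPH (2.75 FPKM with ABA against 5.74 FPKM untreated) fell.

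Starch breakdown had 7 of 13 genes higher and 3 lower, and starch synthesis 3 of 10 higher and 4 lower. The alpha-amylase AMY1 rose to 20.9 FPKM with ABA against 0.383 FPKM untreated. BAM1, the beta-amylase of guard cells and osmotic stress, rose to 78.1 FPKM with ABA against 26.4 FPKM untreated, and BAM3, the main beta-amylase of leaves at night, fell to 3.23 FPKM with ABA against 13.6 FPKM untreated. So the members of one enzyme family moved in opposite directions. APL1, a large subunit of ADP-glucose pyrophosphorylase of leaves, fell to 18.4 FPKM with ABA against 44.6 FPKM untreated. Among 17 genes of sugar transport and sucrose use 8 rose and 4 fell. The sugar carriers SWEET4 (87.5 FPKM with ABA against 1.21 FPKM untreated) and STP13 (200.4 FPKM with ABA against 16.2 FPKM untreated) and the sucrose synthase SUS3 (28.7 FPKM with ABA against 2.62 FPKM untreated) rose by more than 10-fold. STP1, a proton-driven hexose importer like STP13, fell to 138 FPKM with ABA against 584 FPKM untreated, and the vacuolar carrier SWEET16 to 3.20 FPKM with ABA against 16.1 FPKM untreated.

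Senescence and chlorophyll breakdown genes had the highest median of the lists, at log2 1.54, with 10 of 14 higher and 2 lower. SAG29 (SWEET15), a sucrose carrier of old leaves, rose 101-fold, at 199.8 FPKM with ABA and 1.98 FPKM untreated. SAG13 rose to 88.1 FPKM with ABA against 1.32 FPKM untreated, the senescence factor WRKY53 to 12.6 FPKM with ABA against 1.77 FPKM untreated, and NYE1, which takes the magnesium from chlorophyll, to 46.2 FPKM with ABA against 8.30 FPKM untreated. SEN1, a gene of dark-induced senescence, fell to 527 FPKM with ABA against 2259 FPKM untreated, and CLH1, a chlorophyllase, to 2.00 FPKM with ABA against 10.3 FPKM untreated. Autophagy genes were higher in 7 of 17 cases and lower in 1, with ATG8A at 352 FPKM with ABA and 167 FPKM untreated and the exception ATG8F at 354 FPKM with ABA and 462 FPKM untreated.

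Of 19 nitrogen genes 10 rose and 6 fell. The 3 genes of nitrate reduction all rose, with the nitrite reductase NIR1 at 378 FPKM with ABA and 85.7 FPKM untreated. NRT1.8, which takes nitrate out of the xylem, rose to 6.85 FPKM with ABA against 0.634 FPKM untreated, and NRT1.5, which loads it, fell to 27.3 FPKM with ABA against 58.3 FPKM untreated. GLN1;1, a cytosolic glutamine synthetase, rose to 276 FPKM with ABA against 85.0 FPKM untreated. The ammonium transporter AMT1;2 fell to 1.02 FPKM with ABA against 10.3 FPKM untreated.

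Lists of 4 other hormone pathways, ethylene, cytokinin, gibberellin and brassinosteroid, were also counted, and differences between them were not tested. Of 20 ethylene genes 12 rose and 1 fell (median log2 0.49), with 7 of 9 synthesis genes among the rises. The ACC synthases ACS8 (4.05 FPKM with ABA against 0.313 FPKM untreated), ACS7 (21.9 FPKM with ABA against 1.91 FPKM untreated) and ACS11 (7.06 FPKM with ABA against 0.696 FPKM untreated) led them, and the target factor ERF1 reached 7.63 FPKM with ABA against 0.844 FPKM untreated. All 3 tested ethylene receptors rose, though the call of ERS1 was lost when p-values were adjusted within this table. EBF1, which takes part in degrading the factor EIN3, fell to 42.0 FPKM with ABA against 53.6 FPKM untreated. EBF2 moved the other way and rose, with a log2 change of 0.40.

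Cytokinin genes were lower in 14 of 21 cases and higher in 2, with a median log2 of -1.05. The type-A response regulators, fast targets of cytokinin that damp its signal, fell in 7 of 8 cases, with ARR7 at 2.37 FPKM with ABA and 21.0 FPKM untreated, ARR5 at 3.78 FPKM with ABA and 15.3 FPKM untreated and ARR4 at 46.1 FPKM with ABA and 181 FPKM untreated. Of the synthesis genes IPT5 fell (0.343 FPKM with ABA against 1.67 FPKM untreated) and IPT1 rose (1.01 FPKM with ABA against 0.424 FPKM untreated). Among 22 gibberellin genes 11 fell and 5 rose. GASA6, a gibberellin-induced gene, fell to 64.3 FPKM with ABA against 1018 FPKM untreated, and GASA4 to 534 FPKM with ABA against 1939 FPKM untreated. The inactivating oxidase GA2OX6 rose to 47.2 FPKM with ABA against 4.75 FPKM untreated, and the synthesis oxidase GA20OX1 fell to 0.0685 FPKM with ABA against 0.782 FPKM untreated. DELLA repressors fell in 3 of 5 cases, with RGL2 at 0.796 FPKM with ABA and 2.05 FPKM untreated. Of 16 brassinosteroid genes 7 fell and 4 rose, and the synthesis genes CPD (176 FPKM with ABA against 412 FPKM untreated) and DWF1 (95.6 FPKM with ABA against 265 FPKM untreated) fell while DWF4 (14.8 FPKM with ABA against 8.15 FPKM untreated) rose.

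**Figure D4:**
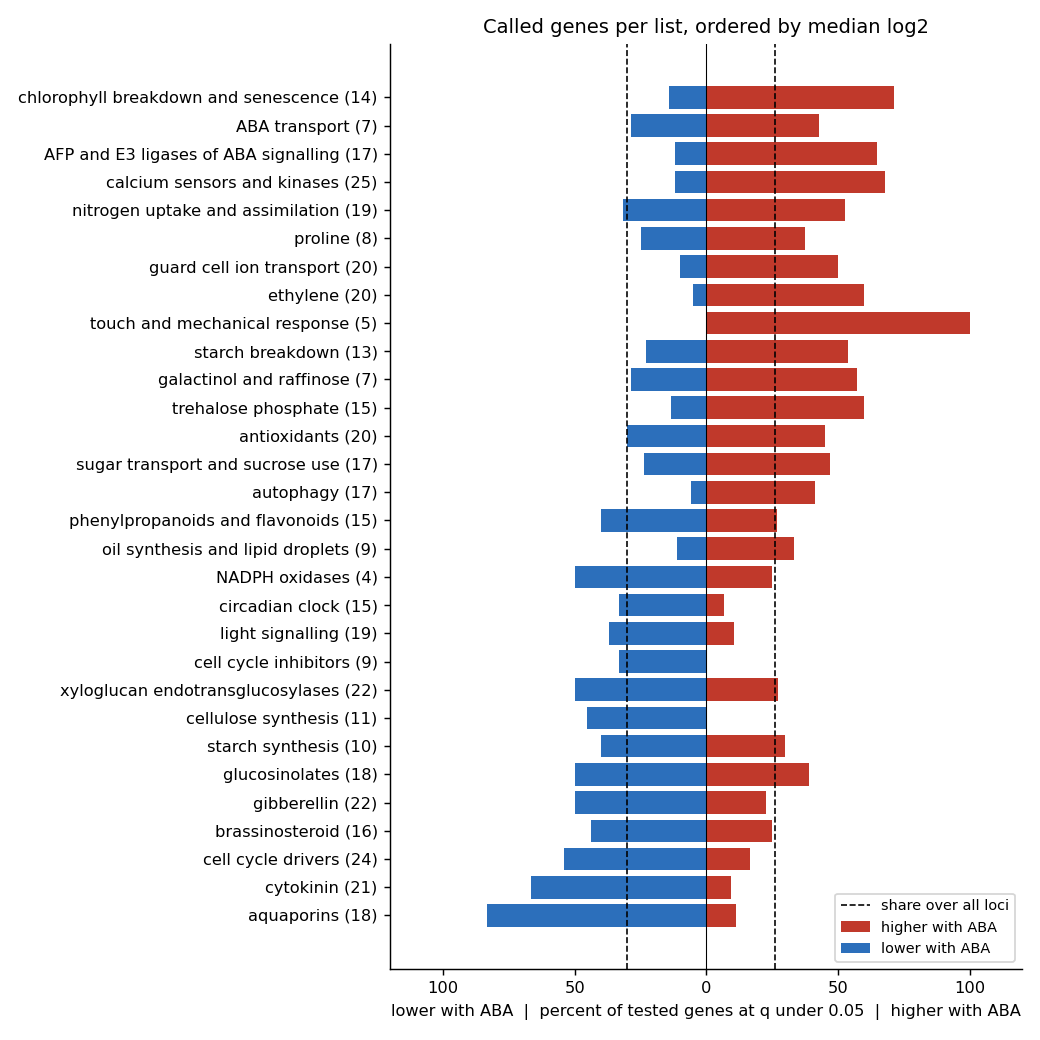
The percent of tested genes called higher (red, right) and lower (blue, left) with ABA in each gene list, ordered by the median log2 of its members, with the number tested in brackets and dashed lines at the shares over all loci, 26.0% higher and 30.1% lower. Senescence and ABA signalling lists stand at the top and aquaporins and cytokinin at the bottom.

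Water channels had the largest share of falls among the lists other than tissue markers, with 15 of 18 aquaporins lower and 2 higher and a median log2 of -1.09. The 5 tested channels of the vacuolar membrane all fell, TIP2;2 to 90.9 FPKM with ABA against 337 FPKM untreated and TIP2;3 to 15.0 FPKM with ABA against 55.5 FPKM untreated. At the plasma membrane PIP2;4 fell to 9.18 FPKM with ABA against 49.6 FPKM untreated. PIP1;4 rose to 240.3 FPKM with ABA against 139.8 FPKM untreated, PIP2;5 rose to 20.6 FPKM with ABA against 14.0 FPKM untreated, and PIP2;6 was not called at 411 FPKM with ABA and 418 FPKM untreated. Several aquaporins are mostly expressed in roots, and root markers fell in the same RNA, 10 of 12 lower and 1 higher with a summed level of 89.6 FPKM with ABA and 206 FPKM untreated. Their part in the fall of water channels was not tested. HKT1, a sodium transporter of root xylem, stood at 0.386 FPKM with ABA and 2.73 FPKM untreated, and RHD6 of root hairs, the exception, at 3.11 FPKM with ABA and 2.04 FPKM untreated. Leaf mesophyll markers fell too, 5 of 5, among them the carbonic anhydrase CA1 at 75.1 FPKM with ABA and 612 FPKM untreated and Rubisco activase RCA at 115 FPKM with ABA and 615 FPKM untreated. Of 10 markers each of flowers and of seeds, 2 and 1 had a row, at 2.06 FPKM or less in either group.

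Of 24 cell cycle drivers 13 fell and 4 rose. A and B cyclins, of mitosis, were lower in 8 of 9 cases, such as CYCB1;2 at 2.27 FPKM with ABA and 5.14 FPKM untreated, and CYCD3;1, which promotes entry into division, fell to 6.46 FPKM with ABA against 16.1 FPKM untreated. The replication genes MCM2 (3.69 FPKM with ABA against 2.08 FPKM untreated), MCM5 (5.23 FPKM with ABA against 3.41 FPKM untreated) and PCNA2 (18.6 FPKM with ABA against 12.5 FPKM untreated) rose. Of 9 CDK inhibitors 3 fell, a share of 33.3% near the 30.1% of all loci called lower, KRP7 to 0.635 FPKM with ABA against 2.54 FPKM untreated among them, and the other 6 were not called. Cellulose synthesis genes fell in 5 of 11 cases, each by less than 2-fold, and 6 were not called. Xyloglucan endotransglucosylases, which cut and rejoin wall polymers, were lower in 11 of 22 cases and higher in 6. Those 22 ranged from XTH31 at 1.32 FPKM with ABA and 31.8 FPKM untreated to XTH23 at 36.9 FPKM with ABA and 5.32 FPKM untreated. XTH11, which the list does not hold, had a larger log2 change, 4.64 against 2.79 for XTH23.

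Glucosinolate genes split by branch, with exceptions in the aliphatic one. The indole branch rose in 5 of 5 tested genes, with its factor MYB51 at 29.7 FPKM with ABA and 4.56 FPKM untreated, CYP79B2 at 51.2 FPKM with ABA and 17.7 FPKM untreated and CYP83B1 at 171 FPKM with ABA and 61.2 FPKM untreated. The aliphatic branch fell in 7 of 11 and rose in 2. MAM3, which lengthens the methionine chain, fell to 4.82 FPKM with ABA against 48.2 FPKM untreated, CYP79F2 to 2.05 FPKM with ABA against 10.8 FPKM untreated and the factor MYB28 to 6.67 FPKM with ABA against 13.01 FPKM untreated. SOT17, a sulfotransferase counted in the aliphatic branch, rose to 25.0 FPKM with ABA against 9.55 FPKM untreated. The other rise was CYP79F1, so that CYP79F1 and CYP79F2 moved in opposite directions. Whether reads were split between these genes was not tested. Both tested myrosinases fell. A difference between the branches was not tested.

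Of 15 phenylpropanoid and flavonoid genes 4 rose (26.7%) and 6 fell. PAL1 (54.5 FPKM with ABA against 28.3 FPKM untreated) and C4H (260.1 FPKM with ABA against 106 FPKM untreated), at the entry of the pathway, rose, and chalcone synthase TT4 fell to 12.8 FPKM with ABA against 16.9 FPKM untreated. TT8, a bHLH factor of anthocyanin and seed coat pigment, rose to 1.94 FPKM with ABA against 0.0758 FPKM untreated. PAP1, the MYB factor of anthocyanin, was at 1.70 FPKM with ABA and 0.0425 FPKM untreated, without a call.

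Antioxidant genes rose in 9 of 20 cases (45.0%) and fell in 6 (30.0%). The glutathione peroxidase GPX2 rose to 583 FPKM with ABA against 172 FPKM untreated, dehydroascorbate reductase DHAR2 to 181 FPKM with ABA against 60.9 FPKM untreated and the catalase CAT1 to 79.6 FPKM with ABA against 28.7 FPKM untreated. CAT2, the photorespiratory catalase of leaves, fell to 45.8 FPKM with ABA against 86.4 FPKM untreated, and the plastid enzymes GPX1 and CSD2 fell to 228 and 13.04 FPKM with ABA, against 418 and 31.9 FPKM untreated. Of 4 NADPH oxidases, which make superoxide, RBOHF rose (6.66 FPKM with ABA against 3.41 FPKM untreated), RBOHB (0.531 FPKM with ABA against 1.99 FPKM untreated) and RBOHC (2.47 FPKM with ABA against 3.27 FPKM untreated) fell, and RBOHD was not called (9.48 FPKM with ABA against 8.84 FPKM untreated).

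Light and clock genes held few rises. Of 19 light signalling genes 7 fell (36.8%) and 2 rose (10.5%). The blue light receptor CRY1 fell to 21.3 FPKM with ABA against 43.9 FPKM untreated, and the growth factors PIF4 and PIF5 fell to 31.6 and 17.3 FPKM with ABA, against 62.1 and 33.1 FPKM untreated. PIF3 stood at 49.1 FPKM with ABA and 11.1 FPKM untreated without a call. Among 15 clock genes 5 fell (33.3%) and 1 rose (6.67%). GI, an evening gene, stood at 6.77 FPKM with ABA and 16.9 FPKM untreated, and ELF4 at 273 FPKM with ABA and 148 FPKM untreated. Harvest time of day is not stated for either group, and its part in these values was not tested.

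In the list of oil synthesis and lipid droplets 3 of 9 genes rose (33.3%) and 1 fell (11.1%). RD20, a caleosin of lipid droplets and a drought marker, rose 206-fold, at 332 FPKM with ABA and 1.61 FPKM untreated. Genes of touch and mechanical response rose in 5 of 5 cases, with a median log2 of 0.48. The largest rises were the calmodulin-like TCH3 at 235 FPKM with ABA and 76.1 FPKM untreated and WRKY40 at 21.0 FPKM with ABA and 2.16 FPKM untreated. TCH2, CAM2 and CML23 rose little, with log2 changes of 0.32, 0.45 and 0.48. With no mock spray named, the spray and the hormone cannot be told apart for these genes.

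The response had the same direction in rbm25-1 for nearly all strong responders that had a row in every gene table. The rbm25-1 samples differ from those of wild type, and their ratio was formed here from the group values in the other pair of gene tables, which held wild-type values equal to those used here. Not all of the 94 loci called at least 32-fold higher in wild type had a row in every gene table. The first class was the 62 that did, and the rest could not be compared. The median log2 change of these 62 was 5.66 in rbm25-1 and 5.78 in wild type, and 62 of 62 were above 0 in rbm25-1. Of 2269 loci called at least 2-fold lower in wild type, 1987 had such rows and were compared. The median of these 1987 was -1.37 in rbm25-1 and -1.46 in wild type, with 1974 below 0 in rbm25-1. The classes were chosen by the wild-type values, and the difference between genotypes was not tested.

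In splicing, no event with unequal PSI passed an adjusted threshold. Of 10502 events with a percent spliced in (PSI) for each group, 507 had an unadjusted p under 0.05 (4.83%), with PSI higher in 247, lower in 259 and equal in 1. After Benjamini-Hochberg adjustment over the events 1 remained (0.00952%), an alternative donor of AT3G05850 with a deposited p of 0 and PSI at 0 in both groups, which is not read as a change and is named after its values were seen. The smallest adjusted p among the others was 0.152. The share of 4.83% is also no larger than a p threshold of 0.05 would give without any change. The 507 are therefore not read as a set of changed events. Those named below passed no adjusted threshold and are given as descriptions. By type, unadjusted p under 0.05 was reached by 20.3% of 197 alternative first exons, 14.3% of 105 alternative last exons, 8.96% of 413 cassette exons, 8.58% of 1912 alternative donors, 4.62% of 3703 alternative acceptors and 1.92% of 4115 retained introns. Of 365 genes with such an event and a single-gene row, 67.4% were called by expression, against 55.9% of 4774 genes with any event. Read depth can bear on both p-values and is unknown, and its part in this difference was not tested.

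The largest differences in PSI were mostly in genes outside the lists. RGLG1, a RING ubiquitin ligase of ABA signalling, used its alternative first exon at 76.9% PSI with ABA and 0% untreated (unadjusted p = 0.000672 in the authors' deposited table), and its expression was called higher with a log2 change of 0.41. The noncoding RNA gene AT3G46668 had alternative donors at 75.4% PSI with ABA against 12.5% untreated and at 17.4% with ABA against 75.0% untreated, which share an intron. That intron lies over AT3G00810 in the RefSeq annotation and another intron of each event over AT3G46668, so that the gene of these events is uncertain. MCM3, a subunit of the replicative helicase, retained 2 introns at 0% PSI with ABA, against 53.3% and 50.0% untreated, and was itself called higher with a log2 change of 0.79. MYB106, a factor of trichome and cuticle development, retained an intron at 24.1% PSI with ABA and 74.2% untreated. The glycine-rich RNA-binding protein gene GRP7 had an acceptor at 5.23% PSI with ABA and 50.5% untreated, of an intron 27 bases long that lies inside an annotated exon. The cellulase gene CEL5 retained an intron at 100% PSI with ABA and 57.6% untreated, while its expression fell by 1.36 on the log2 scale.

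AFP3 and ELF3 were the list genes with more than 1 such event under their name alone, and those of AFP3 were larger. AFP3 used the nearer of a pair of acceptors at 69.3% PSI with ABA and 51.4% untreated (unadjusted p = 0.00037 in the authors' deposited table), and retained the same intron at 66.7% with ABA and 46.4% untreated. SR30, a splicing factor of the SR family, used its nearer acceptor at 16.8% PSI with ABA and 49.3% untreated (unadjusted p = 0.000869 in the authors' deposited table). The acceptor ends show how the alternatives differ, with the last 20 bases of the intron, the terminal AG in capitals, and 10 bases of the exon, from the RefSeq genome of build TAIR10.1 on the minus strand.
AFP3 nearer acceptor (chr3:11383666-11383695): ttaatattctccgaccgaAGttattatgtt
AFP3 farther acceptor (chr3:11383652-11383681): ccgaagttattatgttgcAGgctcatgtcg
SR30 nearer acceptor (chr1:2943555-2943584): ttgcgttgtttgttttctAGatctggctca
SR30 farther acceptor (chr1:2943217-2943246): ggtttttggtcttgctgcAGgtcccaatca

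The acceptors of AFP3 lie 14 bases apart and those of SR30 338 bases apart, so that the AFP3 sequences above overlap. In rbm25-1 the AFP3 acceptor event stood at 73.6% PSI with ABA and 59.6% untreated. Of the other list genes, IMS2 (MAM3) had an alternative first exon at 71.4% PSI with ABA and 97.0% untreated (unadjusted p = 2.9e-05 in the authors' deposited table), whose intron of 15329 bases begins in the neighbouring paralog MAM1, so that near-identical sequence makes its reads uncertain. CIPK21 used an alternative donor at 67.9% PSI with ABA and 52.8% untreated, APL1 an acceptor at 100% with ABA and 87.0% untreated, and PPH, which removes the phytol tail of chlorophyll, a cassette exon at 76.1% with ABA and 67.0% untreated. Events in NOL, CASP2, CIPK3, ELF3, ABCG22 and ATG8E differed by less than 10 percentage points. A further pair that the deposited table names CIPK8 and SAPX lies over other genes in the RefSeq annotation and is not read as theirs. Of 10067 events under 1 annotated gene name, 405 had no intron over that gene, 23 of them at unadjusted p under 0.05.

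**Figure D5:**
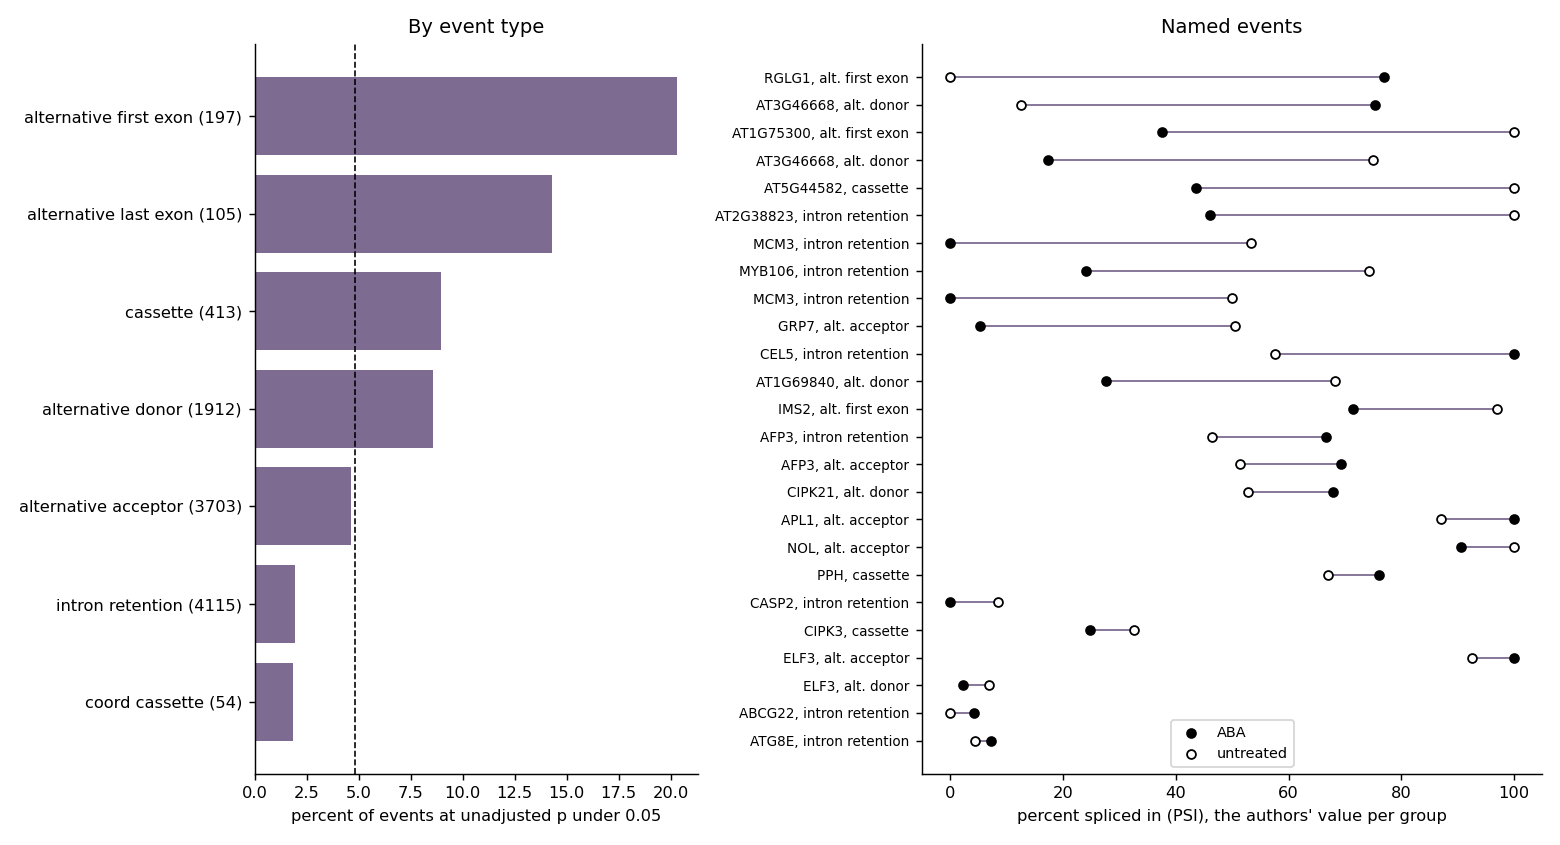
Left, the percent of splicing events at unadjusted p under 0.05 by event type, with the number of events in brackets and a dashed line at 4.83%, the share over all events. Right, PSI with ABA (filled) and untreated (open) for the events with the largest differences and those lying over list genes, none of which passed the adjusted threshold.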

How the data were processed

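Per the submitters' processing notes, reads were handled with Trimmomatic 0.32, TopHat2 2.0.13, Cufflinks 2.2.1 and Cuffdiff on TAIR10, with no settings stated in the sources used here. Per the file headers, the deposited gene table holds the authors' FPKM per group, their log2 fold change, p-value and q-value. The deposited splicing table holds the percent spliced in per group, its signed difference as a score, and an unadjusted p-value from the authors. There are 3 samples per group but 1 deposited value per group and no read totals, so that depth is unknown, no spread between samples can be given and no test between samples was run here.

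Calls used the authors' q under 0.05. For splicing, the Benjamini-Hochberg adjustment was applied across all kept events. Of 19647 loci, 1109 were merged loci or stretches without an identifier. They were counted as loci and kept out of gene lists and promoters. Gene names and promoters came from RefSeq on TAIR10.1, checked against the deposited introns, of which 96.8% had GT-AG ends. Of 570 entries in 35 lists, 484 had a matching name and a row of their own, 26 were in merged loci, 11 had names that did not match, 48 had no row and 1 had more than 1 row. Lists are described by counts and medians with no set test, and the members and lists were chosen with earlier results of these data known.

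Named genes were the 12 largest called gains and losses in FPKM, the 10 highest loci listed at 0 in the other group, the 8 most abundant with little change, the 5 highest and lowest log2 changes, the most changed members of each list (up to 4 called in each direction, and the largest uncalled), and the 12 splicing events with the largest difference at unadjusted p under 0.05 with any such event in a list gene. From these sets the report names those it describes, and uncalled loci at least 32-fold higher, SR30 and symbol families were added after their values were seen. The tools were Python 3.11.15 with numpy 2.4.6, pandas 2.3.3, scipy 1.17.1 and matplotlib 3.10.9, and the adjustment and motif counter were tested on simulated data. Alternatives were other adjustments, thresholds, filters, a pseudocount of 1 and centring on the median.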

Additional observations from a re-analysis of the deposited data

How the results depend on the processing

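Adjusting the p-values within the table gave 5097 loci higher and 5882 lower, a threshold of 0.01 gave 4349 and 4822, and single-gene loci gave 4837 and 5604. A minimum of 5 FPKM in the higher group left 1469 called loci at least 2-fold lower, against 2269 without it, since it removes low loci by construction. With log2(FPKM + 1), called loci at least 2-fold higher numbered 1907 and those at least 2-fold lower 1554. For splicing, 109 events had an unadjusted p under 0.01 and 181 of those under 0.05 differed by at least 10 percentage points. Of 521 named or listed loci, 1 lost its call with the adjustment within the table, the ethylene receptor ERS1, and of the 369 called among them none reversed when values were centred on the median. No paired analysis was possible because the deposited tables hold 1 value per group, although the labels number the samples. For the same reason leaving out each replicate was not run. Depth is unknown, so how far it limits low loci cannot be given.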

Other observations

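Gene families sorted by the letters of their symbols give a wider view than the lists. Among 119 such families with at least 10 tested genes, 54 had a median log2 above 0. The families were ranked after their values were seen and carry no test. ABCC transporters, which load conjugates into the vacuole, had the highest median (1.37), with 8 of 10 higher, led by ABCC10 at 11.1 FPKM with ABA and 1.14 FPKM untreated. Genes with the symbol CRK, which are cysteine-rich receptor kinases except for 1 CDPK-related kinase that was not called, were higher in 14 of 22 cases, with CRK14 at 8.18 FPKM with ABA and 0.278 FPKM untreated and CRK21, the reverse, at 0.499 FPKM with ABA and 3.36 FPKM untreated. MAPKKK genes were higher in 9 of 12 cases, with the ABA-activated MAPKKK18 at 38.9 FPKM with ABA and 0.588 FPKM untreated, and WRKY factors in 31 of 52, with WRKY8 at 13.2 FPKM with ABA and 0.813 FPKM untreated.

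At the other end stood families of growth and plastid biogenesis. Fasciclin-like arabinogalactan proteins (FLA), of the cell surface, were lower in 12 of 14 cases, with FLA9 at 30.3 FPKM with ABA and 227 FPKM untreated. ROPGEF genes, activators of ROP GTPases in polar growth, were lower in 9 of 10, with ROPGEF1 at 15.3 FPKM with ABA and 44.0 FPKM untreated. HCF genes, needed to assemble photosystems, were lower in 11 of 12, with HCF244 at 8.48 FPKM with ABA and 32.3 FPKM untreated, and PTAC genes of plastid transcription in 12 of 14. Ribosomal protein genes named RPL, a symbol that includes plastid forms, were lower in 13 of 18. Some families hold an exception that moved the other way. EXPA16 stood at 243 FPKM with ABA and 29.3 FPKM untreated in a family with 12 of 16 members lower, and ENODL1 at 16.1 FPKM with ABA and 0.665 FPKM untreated in one with 8 of 13 lower.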
